A study of Mus musculus with 12 samples.

Results

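The 10 genes described here encode enzymes that build purine and pyrimidine nucleotides from small precursors: Prps1, Ppat, Gart, Pfas, Adsl, Atic, Gmps, Cad, Dhodh and Umps. They were chosen by name, with earlier results of these data known. All 10 were found, each with 1 probe set that the platform annotation assigns to that symbol alone, and all 10 passed the filter on low signals. They are 10 of the 12961 genes tested.

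The cells were primary cultures of B lymphomas from l-MYC;B1-8f mice of a C57BL/6J x BALB/c background, a genotype that all groups share. TAT-Cre, a Cre protein that enters cells, was used to remove the B cell receptor (BCR). Mixtures of receptor-bearing and receptor-less cells then stayed in culture for 4 days, after which a cell sorter separated them. The 4 groups were BCR-negative cells cultured with CHIR99021, which inhibits the kinase GSK3, untreated BCR-independent cells, untreated BCR-negative cells, and untreated BCR-positive cells. The BCR-independent cells came from BCR-negative tumours after extended culture, as 1 clone per tumour (clone 8 of tumour 2567, clone 7 of tumour 2646 and clone 1 of tumour 2676), each mixed with BCR-positive cells from its tumour of origin. Each group had 3 arrays, 1 from each of those tumours, and the labels give no dose of CHIR99021 and no age of the mice. A title mark, (2), stands on the untreated BCR-negative and BCR-positive arrays from tumours 2646 and 2676 and on none of the other 8, and its meaning is not given. Values are deposited log2 signals of Affymetrix Mouse Gene 1.1 ST arrays, whose medians lay between 3.32 and 3.44. Precision is limited by the number of arrays, 3 in each group.

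Purine synthesis starts from phosphoribosyl pyrophosphate (PRPP), on which the ring is assembled stepwise until inosine monophosphate (IMP) is reached, the common source of AMP and GMP. Pyrimidine synthesis makes the ring first, as orotate, joins it to PRPP and ends in uridine monophosphate (UMP). Dividing lymphocytes are known to depend on both routes for RNA and DNA, and MYC is known to activate many of the genes. GSK3 is known to phosphorylate MYC and so mark it for degradation.

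RefSeq promoter windows of build GRCm38.p6 were at hand for 8 of the 10 genes, all but Pfas and Dhodh. The 250 bases before the start of 4 genes are shown, 5′ to 3′: Gart, the gene that passed the test, Atic, the member whose window holds an E-box, and the pair Ppat and Paics. Paics encodes a further enzyme of the purine route, is no member, and starts 276 bases from the Ppat start on the opposite strand. By these coordinates the 2 genes overlap at their starts. The Paics window lies inside the span of Ppat (chr5:76913249-76951578), and the bases between the starts are in neither window. Capitals mark CACGTG, the E-box that MYC and MAX are known to bind, and CCAAT or its complement ATTGG. The windows are chr16:91646973-91647222 (minus strand), chr1:71556906-71557155 (plus strand), chr5:76951579-76951828 (minus strand) and chr5:76951052-76951301 (plus strand).
Gart: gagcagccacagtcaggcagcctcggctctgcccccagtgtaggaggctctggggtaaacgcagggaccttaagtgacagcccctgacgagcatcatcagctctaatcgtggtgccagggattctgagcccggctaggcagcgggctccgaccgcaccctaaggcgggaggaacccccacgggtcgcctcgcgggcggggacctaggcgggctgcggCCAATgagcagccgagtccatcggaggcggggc
Atic: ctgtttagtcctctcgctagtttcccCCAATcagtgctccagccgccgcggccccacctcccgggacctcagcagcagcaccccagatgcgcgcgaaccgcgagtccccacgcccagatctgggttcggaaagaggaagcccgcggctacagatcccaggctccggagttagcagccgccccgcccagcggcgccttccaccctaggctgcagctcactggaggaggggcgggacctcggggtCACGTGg
Ppat: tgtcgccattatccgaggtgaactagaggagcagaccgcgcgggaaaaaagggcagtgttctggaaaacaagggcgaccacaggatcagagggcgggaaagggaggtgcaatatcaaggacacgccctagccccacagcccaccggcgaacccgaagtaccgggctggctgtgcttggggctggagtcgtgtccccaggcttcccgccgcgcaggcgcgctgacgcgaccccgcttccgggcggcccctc
Paics: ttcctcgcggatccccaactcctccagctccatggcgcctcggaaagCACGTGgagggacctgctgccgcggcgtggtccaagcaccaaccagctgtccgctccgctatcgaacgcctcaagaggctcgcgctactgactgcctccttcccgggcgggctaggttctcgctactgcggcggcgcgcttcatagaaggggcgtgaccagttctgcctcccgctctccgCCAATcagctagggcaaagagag
The E-box of Atic lies 7 to 2 bases before the start, and that of Paics 203 to 198 bases before it. CACGTG was found on either strand in 1 of the 8 member windows, against 6.02% of 32851 windows of that length. CCAAT or ATTGG was found in 3 of the 8 (Atic, Gart and Prps1), against 33.8% of all windows. The CCAAT letters of Gart lie 33 to 29 bases before its start. These are matches of letters, and binding was not measured. The CCAAT box was chosen after the values were known.

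Before the enzymes, the arrays were checked against their labels. Ighv1-72, from which the B1-8 heavy chain is built, read 5.77 ± 0.73 with CHIR99021, 4.04 ± 0.28 in the BCR-independent clones, 6.44 ± 0.57 in untreated BCR-negative cells and 9.62 ± 0.30 in BCR-positive cells (SD, n = 3 each), though near-identical segments may share its probe set. Its difference between BCR-negative and BCR-positive cells was -3.18 (SE 0.31, limma adjusted p = 0.0241). That call was lost without the tumour block (adjusted p = 0.0587) and without tumour 2567, 2646 or 2676 (0.399, 0.197 and 0.999), at differences of -3.54 to -2.97. Of 9 measured B cell markers, 7 exceeded the array median on every array, while Ms4a1 read 2.55 to 3.19, below the 40th percentile on most. Their mean signal ran from 7.02 to 7.33 with CHIR99021, from 6.99 to 7.36 in the clones, from 7.11 to 7.60 in untreated BCR-negative cells and from 7.53 to 8.18 in BCR-positive cells. Single markers moved in opposite directions: Ebf1 averaged 7.79 with CHIR99021 and 9.002 in untreated BCR-negative cells, Pax5 8.09 and 8.54, and Cd74 7.40 and 6.37 (means of 3 arrays, named after their values were seen). The part of these markers in the results was not tested. Of other cell types, 2 of 8 T cell, 1 of 8 myeloid (Itgam, at 4.08 to 5.97) 0 of 5 NK cell, 2 of 5 stroma, 0 of 2 erythroid and 1 of 3 plasma cell markers (Sdc1, at 5.32 to 6.25) exceeded the median on every array. The mean of the T cell list ran from 3.09 to 3.18 with CHIR99021, from 3.03 to 3.19 in the clones, from 3.03 to 3.14 in untreated BCR-negative cells and from 3.08 to 3.15 in BCR-positive cells, and means of the myeloid and NK lists lay between 2.88 and 3.35 on every array. Means lay between 3.27 and 3.59 for stroma, 2.70 and 2.99 for erythroid and 3.66 and 4.01 for plasma cell markers.

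**Figure D1:**
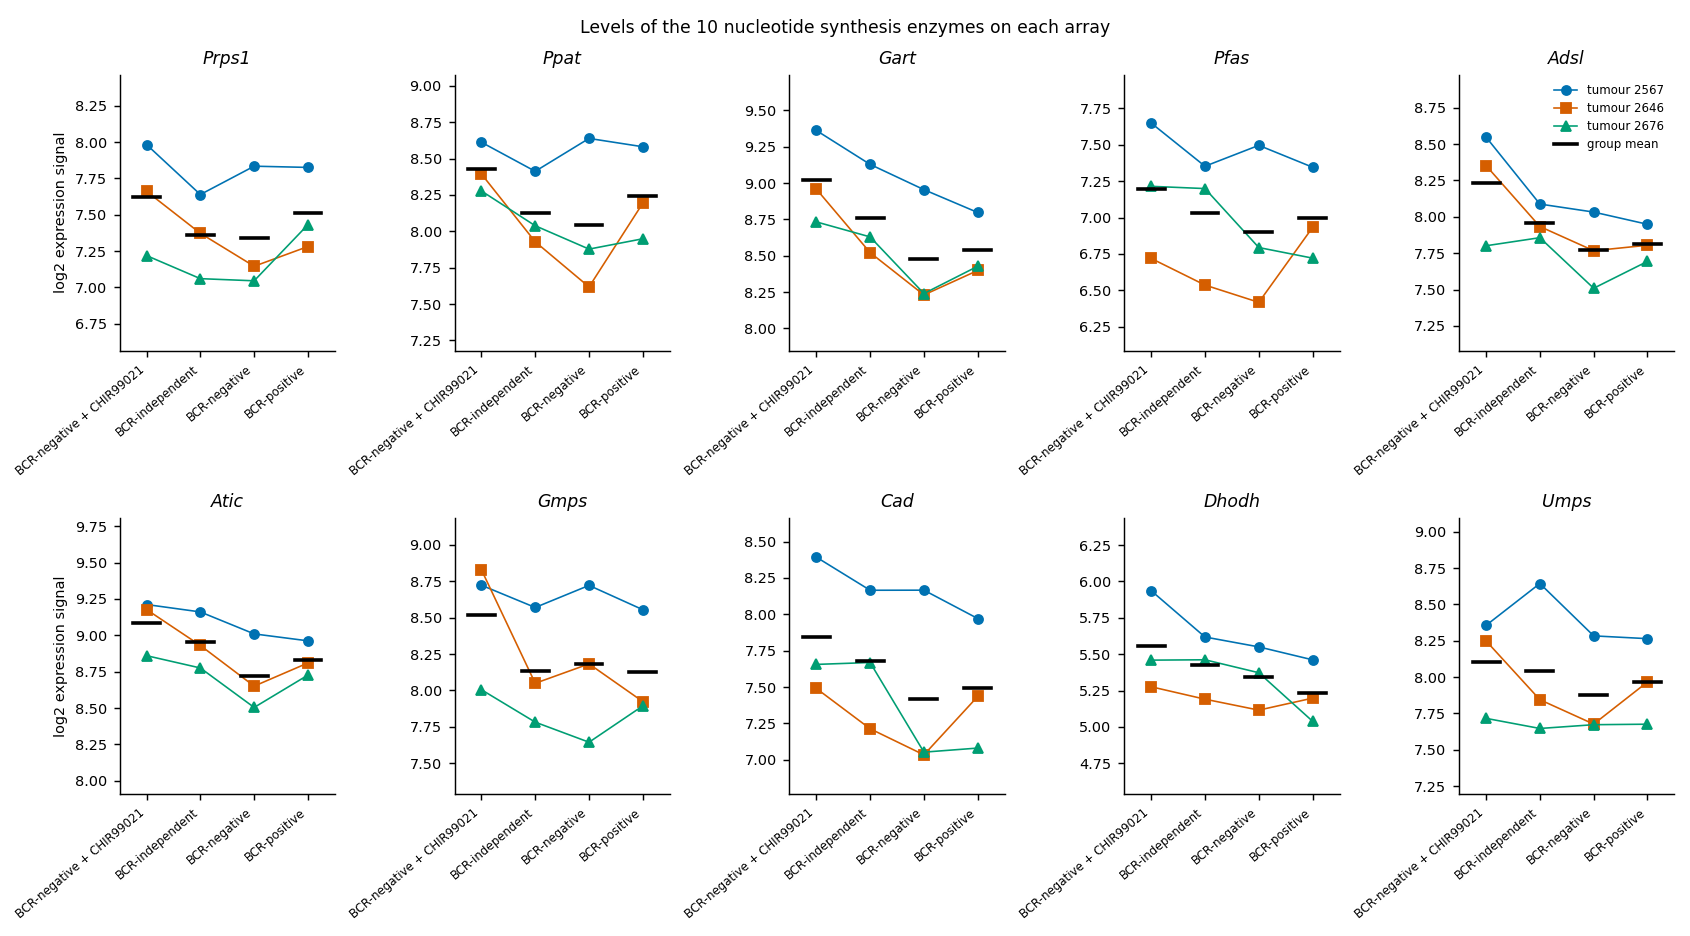
Log2 expression signal (y axis) of each enzyme gene in the 4 groups (x axis), with 1 point per array, lines joining the arrays of a tumour and black bars for group means. All panels span the same height. Treated BCR-negative cells have the highest group mean in 10 of 10 panels, and tumour 2567 lies highest in its mean over the 4 groups in all of them.

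The group mean of treated BCR-negative cells was the highest of the 4 for 10 of the 10 enzymes, as the plot of levels by array shows. The lowest was that of BCR-negative cells for 8 and of BCR-positive cells for Gmps and Dhodh. These orders describe the means, and the share of all genes with the treated mean highest was not counted. The 10 are not separate observations. All 45 of their pairs correlated above 0 once tumour means were subtracted, and group differences remain in those correlations. Of 60 tests, 10 genes in 6 comparisons, 1 passed, and no pair of neighbours in any of these orders passed it. Tumours differed more than groups in 9 of the 10 genes, Adsl excepted. The mean over the 4 arrays of tumour 2567 was the highest for 10 of 10 genes, and the lowest was that of tumour 2646 for 4 (Ppat, Pfas, Cad and Dhodh) and of tumour 2676 for 6. The share of all genes highest in tumour 2567 was not counted either. The highest and lowest tumour means were 0.37 (Atic) to 0.88 (Cad) log2 units apart. Between-tumour differences made up a median of 65.4% of a member's sum of squares over the 12 arrays, against 39.8% over all 12961 genes, and group differences a median of 18.7%, against 20.7% over all genes. The share between groups was largest in Adsl (44.1%), Atic (41.0%) and Gart (38.7%). The fits below compare arrays within tumours, and sets of 3 values below follow the order of tumours 2567, 2646 and 2676.

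CHIR99021-treated BCR-negative cells were compared with untreated BCR-negative cells, a comparison about GSK3 inhibition where the receptor is missing. All 10 fitted differences were above 0, against 56.7% of all genes tested. They lay between 0.21 and 0.54 log2 units with a median of 0.35, against a median of 0.026 over all genes tested. A gene was called when its p, adjusted over all genes by Benjamini and Hochberg, fell under 0.05. That held for 1 member, Gart, and for 1.91% of all genes, and 6 members had an unadjusted p under 0.05 in limma, against 16.6% of all genes. Treated cells were higher in each of the 3 tumours for 9 of the 10, against 25.7% of all genes. Ppat was the exception. In every member the treated and untreated arrays overlapped (0 of 10 stood apart, against 10.6% of all genes). In bulk RNA, fewer cells that express a gene and less RNA per cell cannot be told apart.

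Prps1 encodes the synthetase that makes PRPP and so feeds both routes. It read 7.98, 7.66 and 7.22 in treated cells, against 7.83, 7.15 and 7.05 in untreated BCR-negative cells. The difference of 0.28 (SE 0.12, limma adjusted p = 0.285) was made mostly by tumour 2646. The near copies of Prps1 may share signal with it. Ppat encodes the amidotransferase of the first committed purine step. It read 8.61, 8.39 and 8.28 in treated cells, against 8.64, 7.62 and 7.88 in untreated ones. Its difference of 0.38 (SE 0.14, limma adjusted p = 0.207) rested on tumours 2646 and 2676, since the arrays of tumour 2567 differed by -0.026.

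Gart encodes a protein with several activities of the purine route, among them a formyl transfer that uses a folate one-carbon unit. Its signals were 9.36, 8.96 and 8.73 in treated cells, against 8.95, 8.23 and 8.24 in untreated BCR-negative cells. Each treated array was above the untreated array of its tumour, by 0.41, 0.73 and 0.49. The mean was 9.02 ± 0.32 in treated and 8.48 ± 0.42 in untreated cells (SD, n = 3 each), and the difference of 0.54 (SE 0.098, 95% interval 0.32 to 0.76, a 1.46-fold difference in signal) passed with an adjusted p of 0.0365 in limma. The call was lost without the tumour block (adjusted p = 0.67), with only the 2 groups in the fit (0.0687), with the title mark as a term (0.168) and without tumour 2567, 2646 or 2676 (0.0948, 0.407 and 0.192), while the difference stayed between 0.45 and 0.61. With array weights 6 of 10 members were called, but so were 12.6% of all genes, against 1.91% in the fit without weights.

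Pfas, the synthase that adds a glutamine-derived nitrogen, read 7.65, 6.72 and 7.21 in treated cells, against 7.50, 6.42 and 6.79 in untreated cells. The treated array was the higher one in each tumour, but the adjusted p was 0.409 (difference 0.29, SE 0.16). Adsl, the lyase that acts both on the way to IMP and on the way from IMP to AMP, read 8.55, 8.35 and 7.80 in treated cells, against 8.03, 7.77 and 7.51 in untreated ones. Its difference of 0.46 (SE 0.11, limma adjusted p = 0.0757) was not called. Atic, which carries out the last formyl transfer and closes the IMP ring, read 9.21, 9.18 and 8.86 in treated cells, against 9.01, 8.65 and 8.50 in untreated ones. With a difference of 0.36 (SE 0.087, limma adjusted p = 0.0763) it was not called either. Adsl and Atic were among the 12.6% of all genes called with array weights (limma adjusted p = 0.0104 and 0.0078).

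Gmps, the synthetase that makes GMP, read 8.72, 8.83 and 8.00 in treated cells, against 8.72, 8.18 and 7.64 in untreated BCR-negative cells. In tumour 2567 the arrays differed by 0.0012, so its difference of 0.34 (SE 0.15, limma adjusted p = 0.315) came from the other two tumours. The 3 pyrimidine genes also had fitted differences above 0. Cad, a fused protein that carries out the first pyrimidine steps, read 8.39, 7.49 and 7.66 in treated cells, against 8.17, 7.03 and 7.05 in untreated ones. All 3 tumours were higher under treatment, by 0.23, 0.46 and 0.60, and the fitted difference was 0.43 (SE 0.15, limma adjusted p = 0.181). Dhodh, the mitochondrial enzyme that makes orotate, had signals of 5.94, 5.28 and 5.46 in treated cells, against 5.55, 5.12 and 5.37 in untreated ones. Umps, which turns orotate into UMP, read 8.36, 8.25 and 7.72 in treated cells, against 8.28, 7.68 and 7.67 in untreated ones. Their differences of 0.21 and 0.23 were the smallest of the 10, with adjusted p-values of 0.367 and 0.444 in limma. Dhodh differed most in tumour 2567 (0.39), and Umps in tumour 2646 (0.57).

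**Figure D2:**
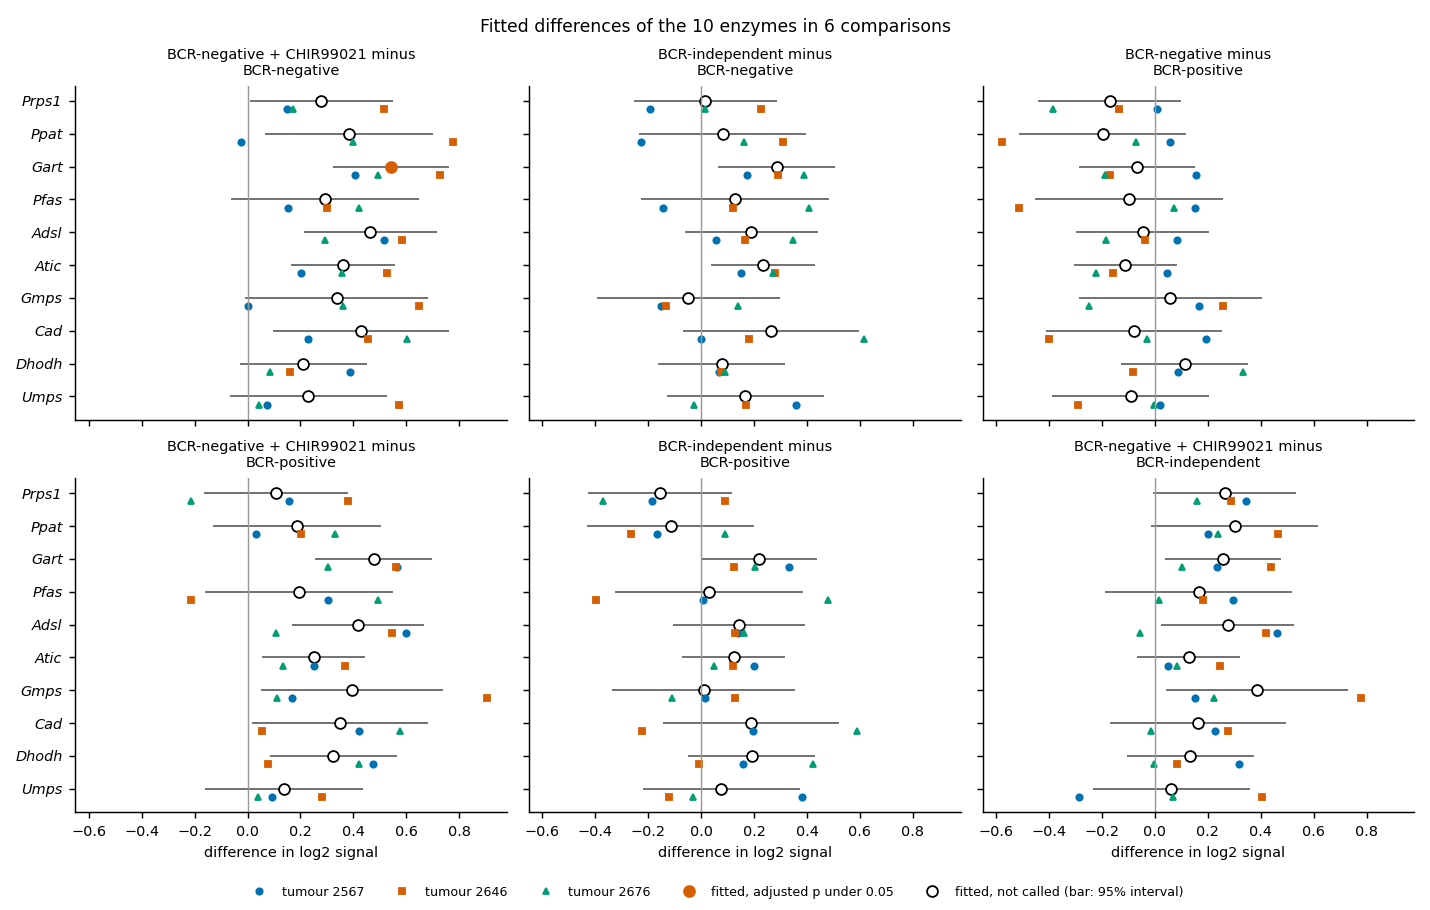
Fitted difference in log2 signal (x axis) for each enzyme gene (y axis) in the 6 comparisons, with 95% intervals as bars, and the difference within each tumour as small points below. The filled point marks Gart at 0.54 in treated against untreated BCR-negative cells, the 1 of 60 differences that was called. In the 3 panels with treated cells all fitted points lie right of 0.

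Among the BCR-negative arrays of tumours 2646 and 2676, the title mark stands on the untreated and not on the treated ones. Treated and untreated BCR-negative arrays of like mark can therefore be paired in tumour 2567 alone. There 9 of the 10 enzymes were higher in treated cells, with a median difference of 0.18, while 60.7% of all genes were. In tumours 2646 and 2676 all 10 were higher, with medians of 0.55 and 0.36, while 53.5% and 50.9% of all genes were. With the mark as a term the 10 fitted differences stayed above 0, and 0 members were called. The part of the mark in these differences was not tested.

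Treated BCR-negative cells were also compared with BCR-positive cells, which differ from them in both the receptor and the inhibitor. Again 10 of 10 fitted differences were above 0, against 57.1% of all genes. The median was 0.29, against 0.029 over all genes, and 0 of 10 were called, where 0.802% of all genes were. In limma 6 of the 10 had an unadjusted p under 0.05, against 15.6% of all genes. Treated cells were higher in all 3 tumours for 8 of the 10, against 21.2% of all genes, and the arrays of the groups stood apart in 0, against 11.5%. Gart read 8.80, 8.40 and 8.43 in BCR-positive cells, and its difference of 0.48 (SE 0.098, limma adjusted p = 0.0612) was not called. Adsl differed by 0.42 (limma adjusted p = 0.116) and Gmps by 0.40 (0.253), the second resting largely on tumour 2646, at 0.17, 0.91 and 0.11 in the 3 tumours. Prps1 and Pfas were each lower in treated cells in 1 tumour, with a difference of -0.21 for Prps1 in tumour 2676 and of -0.21 for Pfas in tumour 2646. In tumour 2567, the one without the title mark, 10 of 10 were higher in treated cells, with a median of 0.28, while 63.1% of all genes were. The comparison shares its treated arrays with the one above.

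Against BCR-independent clones, treated BCR-negative cells had higher fitted values for 10 of 10 enzymes, and for 52.8% of all genes. The median was 0.21, against 0.010 over all genes. None of the 10 was called in limma, against 0.162% of all genes, and 3 had an unadjusted p under 0.05 (Gart, Adsl and Gmps), against 12.3% of all genes. In 6 of the 10 the treated array was the higher one in all 3 tumours, against 19.4% of all genes, and the groups stood apart in 0, against 8.19%. No array of these groups bears the title mark, and the treated arrays are those used above. Gmps had the largest fitted difference, 0.39 (SE 0.15, 95% interval 0.040 to 0.73, limma adjusted p = 0.358). Umps, at 8.64, 7.84 and 7.65 in the BCR-independent clones, had a difference of -0.29 in tumour 2567 and of 0.40 in tumour 2646. Its fitted difference of 0.062 had a 95% interval from -0.23 to 0.36.

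BCR-independent clones were set against BCR-negative cells, a comparison about clones that persist without the receptor. Of the fitted differences 9 of 10 were above 0, against 55.3% of all genes. The median was 0.15, against 0.017 over all genes, and 0 were called, where 0.00772% of all genes were. Gart and Atic were the 2 members with an unadjusted p under 0.05 in limma, against 5.99% of all genes. Gart read 9.13, 8.52 and 8.63 in the clones, and its difference of 0.28 (SE 0.098, limma adjusted p = 0.799) was above 0 in each tumour, at 0.17, 0.29 and 0.39. Atic differed by 0.23 (SE 0.087, limma adjusted p = 0.814), at 0.15, 0.28 and 0.27. Dhodh and Adsl were the other members higher in every tumour, which makes 4 of 10, against 16% of all genes, and the groups stood apart in 0, against 4.54%. Cad was level in tumour 2567 (-0.00061) and 0.62 higher in the clone of tumour 2676. Gmps was the member with a fitted value below 0, at -0.049 (95% interval -0.39 to 0.30). In tumour 2567, where neither array bears the mark, 5 of 10 were higher, against 53% of all genes, with a median of 0.027, and without that tumour the median was 0.25.

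Against BCR-positive cells the clones showed 8 of 10 fitted values above 0, against 55.7% of all genes. The median was 0.099, against 0.022 over all genes, and 0 of 10 were called, where 0.0849% of all genes were. By limma none of the 10 had an unadjusted p under 0.05, against 9.61% of all genes. Prps1 (-0.16) and Ppat (-0.12) had fitted values below 0, with 95% intervals of -0.43 to 0.12 and -0.43 to 0.20. Gart, Adsl and Atic were higher in the clones of all 3 tumours, which is 3 of 10, against 15.1% of all genes, and the groups stood apart in 0, against 7.35%. In tumour 2567, without the mark, 8 of 10 were higher in the clone, with a median of 0.15, while 56.4% of all genes were. Both comparisons of the clones use the same clone arrays.

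Loss of the receptor itself was addressed by setting BCR-negative cells against BCR-positive cells from the mixed cultures. No enzyme passed the test, and the signs were mixed: 8 of 10 fitted values were below 0, while 49.7% of all genes were above it. The median was -0.085, against -0.00093 over all genes. No member was called in limma, where 0.00772% of all genes were, and none had an unadjusted p under 0.05, against 3.19% of all genes. Every 95% interval held 0, and together they reached from -0.51 (Ppat) to 0.40 (Gmps). None of the 10 was lower in all 3 tumours, against 12% of all genes, none was higher in all 3, against 12.4%, and the groups stood apart in 0, against 4.51%. In tumour 2567 all 10 were higher in BCR-negative cells, with a median of 0.086, while tumour 2646 had 1 of 10 higher and a median of -0.16 and tumour 2676 had 2 of 10 and a median of -0.13. Of all genes, 55.6%, 44% and 50.3% were higher in the 3 tumours. In the BCR-negative cells of tumour 2646, Ppat read 7.62, Pfas 6.42 and Cad 7.03, against 8.19, 6.93 and 7.44 in its BCR-positive cells, differences of -0.58, -0.52 and -0.40. In tumour 2567 the same 3 genes differed by 0.057, 0.15 and 0.19.

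**Figure D3:**
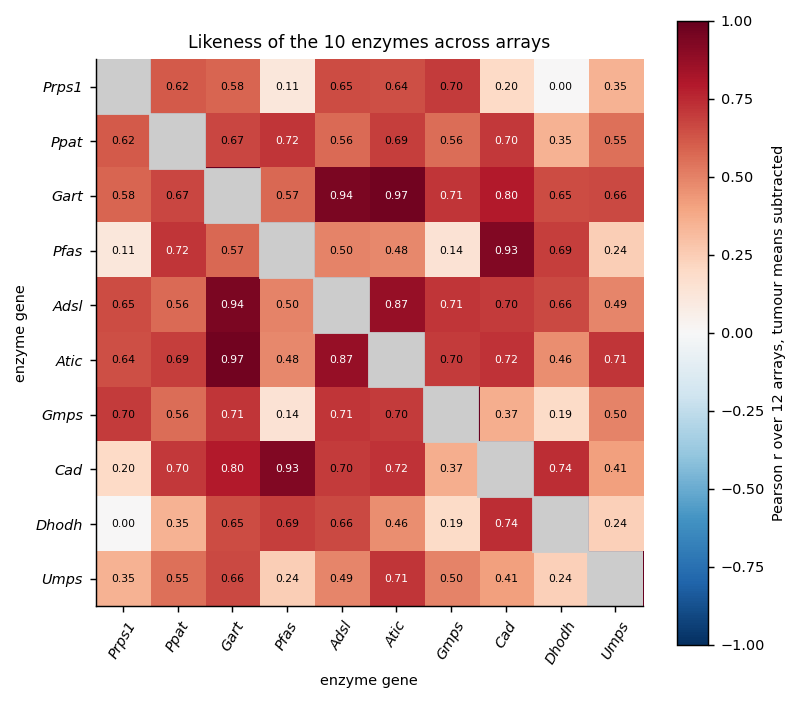
Pearson correlation (colour and number) of each pair of enzyme genes over the 12 arrays after subtracting the mean of each tumour. Differences between groups remain in the values. Gart, Adsl and Atic form one group of high values and Pfas and Cad another, and the lowest value joins Prps1 and Dhodh.

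The enzymes were next compared with each other across arrays, after the mean of each tumour was subtracted. These correlations describe 12 arrays that share tumours and normalization. Group means were left in, so differences between groups enter every r. The share of all gene pairs above 0 was not counted. All 45 pairs were above 0, with a median Pearson r of 0.643. The highest values were those of Gart with Atic (0.965), Gart with Adsl (0.941) and Pfas with Cad (0.926), a purine and a pyrimidine enzyme. The lowest were those of Prps1 with Dhodh (0.0044) and of Prps1 with Pfas (0.113). Against the mean of the other 9 members, Gart had an r of 0.953, Atic 0.911 and Adsl 0.878, and Prps1, at 0.547, the lowest. Averaged over the 10 genes, the tumour-centred level was 0.18, 0.30 and 0.16 in treated cells, -0.021, -0.058 and 0.077 in the clones, -0.030, -0.23 and -0.16 in BCR-negative cells and -0.13, -0.016 and -0.071 in BCR-positive cells.

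The genes outside the 10 with the profile most like that mean were the mitochondrial chaperonin Hspd1 (r 0.989 over 12 arrays), Eif2b3, a subunit of a translation initiation factor (0.975), Crtap (0.974), Enoph1, an enzyme of methionine salvage (0.967), and the translation termination factor Gspt1 (0.966). The most opposed were Pink1, a kinase of mitochondrial quality control (-0.967), the phosphoinositide phosphatase Inpp5k (-0.951), Natd1 (-0.947), Ccdc186 (-0.941) and Ccndbp1 (-0.939). They were picked by that value, with predicted genes and small RNAs passed over. Group differences enter these values too.

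Lists of related genes were read in the same comparison of treated with untreated BCR-negative cells, in which 1.91% of all genes were called. Of all genes, 56.7% had a fitted difference above 0 in it. The other enzymes of the purine route, with the PRPP synthetases, had 7 of 9 members tested, 0 called and 6 higher in treated than in untreated BCR-negative cells, with a median of 0.19. Paics read 10.30 ± 0.26 in treated cells and 10.10 ± 0.12 in untreated BCR-negative cells (SD, n = 3 each), a difference of 0.19 (SE 0.11, limma adjusted p = 0.431). Prps2, the second PRPP synthetase, differed by 0.19 (adjusted p = 0.65) and Impdh1, which starts the branch to GMP, by 0.30 (adjusted p = 0.405). Impdh2 was not analysed here, for lack of a probe set assigned to it alone. The CTP synthases and nucleotide kinases had 8 of 10 members tested, 0 called and a median of 0.19.

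**Figure D4:**
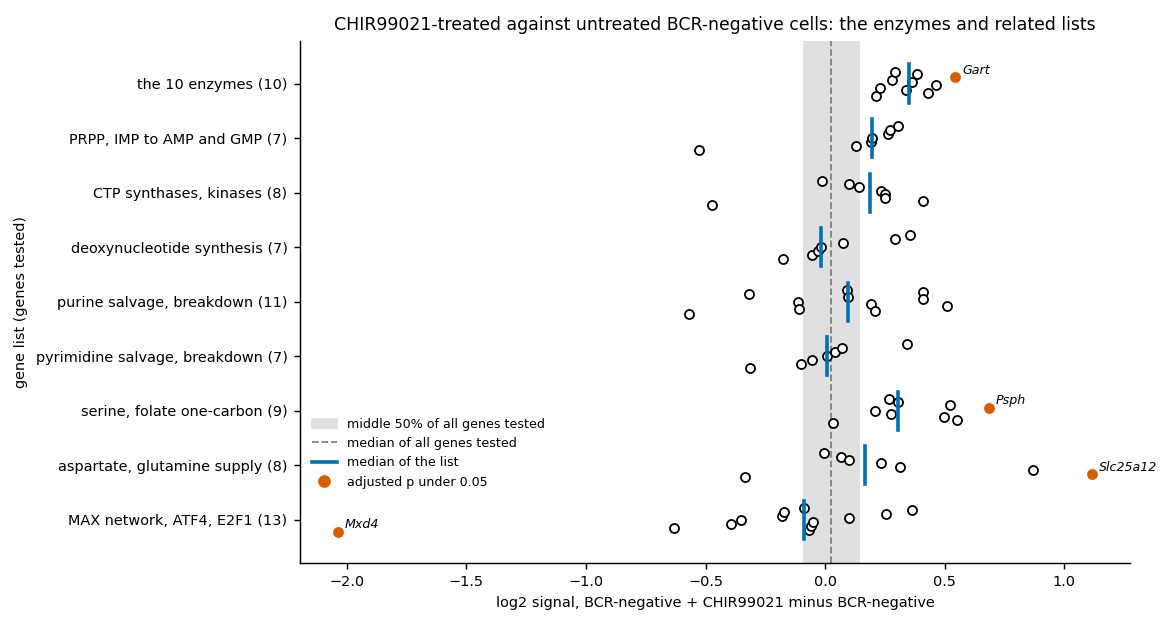
Difference in log2 signal between treated and untreated BCR-negative cells (x axis) for each tested gene of the 10 enzymes and 8 related lists (rows). The filled points mark the called genes Gart, Psph, Slc25a12 and Mxd4. List medians are blue bars, from -0.089 in the MAX network to 0.35 in the enzymes, and the grey band spans the quartiles of single genes over all genes tested.

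Deoxynucleotide synthesis, with ribonucleotide reductase, had 7 of 9 members tested, 0 called and a median of -0.020. Purine salvage and breakdown had 11 of 17 tested, 0 called and a median of 0.097, and pyrimidine salvage and breakdown 7 of 11 tested, 0 called and a median of 0.0057. The enzymes that supply the serine and folate one-carbon units used by Gart and Atic had 9 of 11 tested, all 9 above 0, a median of 0.30 and 1 called. That gene was Psph, which makes serine, at 5.92, 6.46 and 5.47 in treated cells, against 5.21, 5.54 and 5.05 in untreated BCR-negative cells (difference 0.68, SE 0.14, limma adjusted p = 0.0455). Aspartate and glutamine give the rings nitrogen, and their supply list had 8 of 9 tested, 6 above 0, a median of 0.17 and 1 called. That gene was Slc25a12, the mitochondrial carrier that exports aspartate, at 8.09, 8.53 and 7.35 in treated cells, against 6.60, 7.51 and 6.51 in untreated ones (difference 1.12, SE 0.22, limma adjusted p = 0.0439). The calls of both genes were lost when any 1 tumour was left out, when the filter or the tumour block was dropped, and when the mark was a term.

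Of the 13 genes of the MAX network, with Atf4 and E2f1, 10 were below 0 in treated against untreated BCR-negative cells, with a median of -0.089, and 1 was called. That was Mxd4, a partner of MAX known to oppose MYC. It read 5.48, 5.40 and 6.38 in treated cells, against 7.32, 7.84 and 8.21 in untreated BCR-negative cells, and the arrays of the groups stood apart. Its difference of -2.04 (SE 0.20, limma adjusted p = 0.00439) came with -1.76 against BCR-positive cells (adjusted p = 0.0105) and -1.56 against BCR-independent clones (adjusted p = 0.0225), comparisons that share the treated arrays. Without tumour 2567 or 2646 its difference from BCR-negative cells was -2.14 or -1.84 and missed the threshold in limma (adjusted p = 0.0571 and 0.114). Both other calls of Mxd4 were also lost without either of these tumours, without the tumour block and in the fit of the 2 groups alone. The call against BCR-positive cells was lost with the mark as a term too (-1.72, adjusted p = 0.0962).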

How the data were processed

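The deposited values are log2 expression signals per probe set. The authors made them with RMA, which subtracts background, brings arrays to 1 distribution and summarises probes and which compresses dim differences. RMA and Affymetrix Power Tools are named in the submitters' processing notes, without versions. The values were used unchanged, and 0 columns lacked a sample. No detection calls were used.

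Of 35556 probe sets, 21218 had 1 gene symbol. For 21185 the symbol was taken by gene ID from a RefSeq table of GRCm38.p6, whether or not it differed. That table also gave the gene spans. Probe sets above the 40th percentile of the array on 3 or more arrays stayed in (23197), and the brightest one by mean stood for its gene (12961 genes). Group and tumour were terms of a limma 3.58.1 fit (R 4.3.3) to the 12 arrays, with 6 residual and 3.41 prior degrees of freedom, Benjamini-Hochberg adjustment over all genes and calls at 0.05. The tumour number in the titles pairs the arrays. After group means alone were subtracted, arrays correlated between 0.284 and 0.792 within tumours and between -0.716 and 0.165 across them. Subtracting the mean of 3 arrays itself lowers values across tumours, so the second range is partly set by that step. With 1 array per tumour and group, p-values reflect the spread among these arrays that is left after group and tumour are fitted. The fit was tested on simulated data.

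The members, gene lists (89 entries, 70 tested) and alternatives were chosen with earlier results of these data known. Named outside the members by rule are list genes called in a comparison, Paics, Prps2, Impdh1 and Ighv1-72. The 5 most and 5 least alike genes (predicted genes and small RNAs passed over) are named by rule too. The purine salvage and breakdown genes under Other observations were not called and were named after their values were seen. As alternatives the fit was run without the tumour block, without the filter or with one at the 60th percentile, with an intensity trend and robust moderation, with array weights, after cyclic loess or quantile normalization, on averaged probe sets per gene, on the 2 groups compared alone, with the title mark as a term, and without each tumour. Their use on genes outside the members and on the lists was added after the data were seen.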

Additional observations from a re-analysis of the deposited data

How the results depend on the processing

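Of 780 values of a member's difference under an alternative, 746 kept their direction and their side of the threshold, 6 lost the call, 6 gained one and 22 changed sign, all 22 of them not called. For treated against untreated BCR-negative cells, the 10 differences were above 0 under every alternative run, and their number called was 1 in the fit given, 0 without the tumour block, with only the 2 groups and with the title mark, 6 with array weights, and 0 to 0 without 1 tumour. The call of Gart was thus lost without pairing by tumour, and also in fits that kept the block. These were the fits with only the 2 groups, with the mark, and without 1 tumour. The fit with no replicate block (0 called) changed no other member's call. Against BCR-positive cells array weights called 1 member, Gart (adjusted p = 0.048), among 168 of all genes (1.3%), and the median with the mark was 0.22. Over all genes, treated against untreated BCR-negative cells had 248 called in the fit given, 12 without the block, 109 with only the 2 groups, 32 with the mark, 1635 with array weights and 1 to 17 without 1 tumour. The array weights lay between 0.56 and 4.28, highest for the BCR-negative array of tumour 2676. Without 1 tumour the median of the clones ranged from 0.081 to 0.25 against BCR-negative cells (highest without tumour 2567) and from 0.063 to 0.16 against BCR-positive cells (highest without tumour 2646). Under array weights the lists had 1 (other purine enzymes), 2 (CTP synthases and kinases), 1 (deoxynucleotide synthesis), 3 (purine salvage), 2 (pyrimidine salvage), 5 (one-carbon supply), 2 (aspartate and glutamine supply) and 5 (MAX network) genes called. The one-carbon list had 0 called without the block, with no filter, with 2 groups and with the mark, and the aspartate list 0 without the block, with no filter, after quantile normalization and with the mark. Without 1 tumour both had 0 to 0 called, and the MAX network 0 to 1.

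The sign changed with the mark for Prps1 (-0.065) and Ppat (-0.15) in clones against BCR-negative cells, Ppat (-0.045) in treated against BCR-positive cells, Pfas (-0.051) and Gmps (-0.16) in clones against BCR-positive cells, and Prps2 (-0.025) in treated against BCR-negative cells. It changed with array weights for Gmps in BCR-negative (-0.0048) and in clones (-0.030) against BCR-positive cells. With 1 tumour left out, clones against BCR-negative cells gave ranges of -0.090 to 0.12 for Prps1, -0.033 to 0.24 for Ppat, -0.012 to 0.26 for Pfas and -0.14 to 0.0023 for Gmps. Clones against BCR-positive cells gave -0.19 to 0.24 for Pfas, -0.048 to 0.071 for Gmps, -0.014 to 0.39 for Cad and -0.076 to 0.17 for Umps. BCR-negative against BCR-positive cells gave -0.22 to 0.11 for Pfas, -0.11 to 0.023 for Adsl, -0.041 to 0.21 for Gmps, -0.21 to 0.083 for Cad and -0.15 to 0.0079 for Umps. Prps1 ranged from -0.028 to 0.27 in treated against BCR-positive cells, and Umps from -0.11 to 0.24 in treated cells against clones. The cause of these changes was not tested. With 3 arrays per group and no detection calls, differences as small as most of these are within the error of the fit.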

Other observations

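In BCR-independent clones, 10 of 11 tested genes of purine salvage and breakdown had fitted values below 0 against BCR-positive cells, with a median of -0.035 and 0 called in limma, where 55.7% of all genes were higher, 0.0849% were called and 9.61% had an unadjusted p under 0.05. The tumours differed in this. In tumour 2646 the clone was higher for Hprt, Dck, Dguok, Pnp, Ada, Ampd2, Ampd3 and Nt5c2, by 0.019 (Pnp) to 0.40 (Nt5c2). Adk alone was lower in all 3 tumours. The fitted values of Hprt (-0.017) and Ampd2 (-0.022) were close to 0, and Nt5e averaged 2.88 in the clones, under the array medians. Against BCR-negative cells 8 of the 11 were below 0, with a median of -0.084 and 0 called, where 55.3% of all genes were higher and 0.00772% were called. Of these, Dck, Ada and Nt5e were lower in all 3 tumours. The clone arrays are the same in both comparisons. The share of all genes lower in all 3 tumours was not counted for either of them. The lists and comparisons under this heading were picked after the values of all lists were seen. Purine salvage and breakdown in the clones against BCR-positive cells had the largest share of genes below 0 of any list in any comparison. Results under the alternative fits are not given for these picks. Pyrimidine salvage and breakdown had 5 of 7 tested genes below 0 in treated BCR-negative cells against the clones, with a median of -0.15 and 0 called, where 52.8% of all genes were higher and 0.162% were called.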
